A study of Arabidopsis thaliana with 6 samples.

Results

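The 8 genes described are 4 pairs of neighbours on the chromosomes of Arabidopsis thaliana whose transcripts were all higher in the actin2-5 mutant. They are AT5G52750 with AT5G52760, AT1G65500 with AT1G65510, AT5G38900 with AT5G38910, and AT5G43440 with AT5G43450. The pairs were chosen because both genes of each were higher in these same arrays, so their changes describe the choice and are given without a test. Each gene has 1 probe set assigned to it alone, and the 8 genes were taken from 13286 genes with such a probe set. The samples were 3 of actin2-5, which the labels also name wavy and which carries a mutation in ACT2, and 3 of wild type of the Columbia ecotype. All 6 were total RNA of whole seedlings harvested after 8 days on Murashige and Skoog medium, each on 1 Affymetrix ATH1 array, a chip that reads each transcript with a set of short probes. The labels give no ecotype for the mutant and do not say whether seedlings were pooled. The design text calls the replicates biological. By its title the study deals with the actin cytoskeleton between the hormones auxin and brassinosteroid, and the arrays compare the transcripts of the mutant with those of wild type.

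Neighbouring plant genes are often copies of each other that arose by tandem duplication, and copies can keep similar control regions and similar functions. AT5G52750 and AT5G52760 both encode small proteins with a heavy-metal-associated domain, a fold that binds metal ions through cysteines. AT5G43440 and AT5G43450 both encode oxygenases that use 2-oxoglutarate and ferrous iron, in the group related to the enzyme that makes ethylene from its precursor. AT5G38900 and AT5G38910 belong to different families: the first encodes a protein of the DSBA type with a thioredoxin-like fold, the second a germin-like protein, one of the cupins secreted to the cell wall. AT1G65500 and AT1G65510 have no gene symbol in the RefSeq table used for names, and no role is given to them here.

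Values are expression values on the log2 scale made by the authors with RMA, in which 1 unit is a 2-fold difference. RMA brings all arrays to a common distribution and compresses weak signals, so changes of dim genes are understated. Array medians lay between 6.43 and 6.465. Pairs of arrays correlated at 0.9967 to 0.998 among mutant samples, 0.9938 to 0.9954 among wild-type samples and 0.9902 to 0.9947 across genotypes. Root markers PYK10 and NAI2 and 4 green-tissue markers all read 9.89 or more on every array. ACT2 itself was not analysed here, so the genotype labels were not checked by the mutated gene. A control for ribosomal RNA, the 25S probe set, was at 10.63, 7.75 and 9.82 on mutant arrays 1, 2 and 3, against 8.13 to 8.21 on those of wild type, and results are given below with and without the arrays of high signal.

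**Figure D1:**
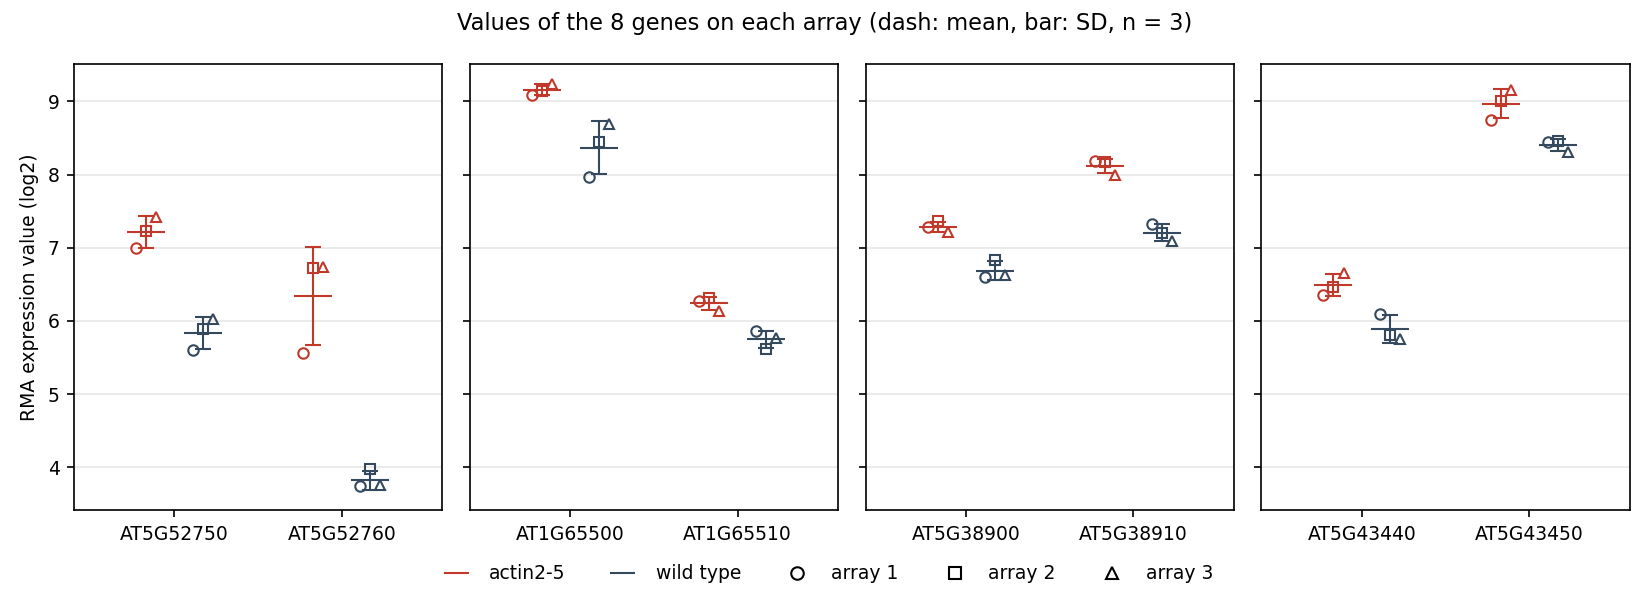
Expression values (log2, vertical axis) of the 8 genes in 4 panels, 1 per pair, with actin2-5 in red and wild type in dark blue. Symbols mark array numbers, dashes the means and bars the SD of 3 arrays. In all 8 genes every actin2-5 array lies above every wild-type array, and AT5G52760 has its lowest actin2-5 value, 5.56, on array 1.

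The largest change was in the heavy-metal-associated pair. AT5G52760 read 5.56, 6.72 and 6.74 on actin2-5 arrays 1, 2 and 3, against 3.74, 3.97 and 3.75 in wild type. All 3 wild-type values lie under the lower quartile of every array, 4.49 to 4.58, so the gene was dim in wild type and well above that range in each mutant sample. Its means were 6.34 ± 0.68 in actin2-5, against 3.82 ± 0.13 in wild type (SD, n = 3 each), a log2 change of 2.52 ± 0.26 (SE). The table holds no detection calls, so it is not known whether the wild-type signal was above background, and this change of RMA values can understate the difference in transcript. Actin2-5 array 1 stood more than 1 unit under the other two, which makes this the member with the widest spread among mutant samples. Without that array the change was 2.91 ± 0.11.

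Its neighbour AT5G52750 read 6.99, 7.23 and 7.42 in actin2-5, against 5.60, 5.89 and 6.02 in wild type. The mutant samples lay at least 0.97 above the highest wild-type sample. The change was 1.38 ± 0.13 (SE, n = 3 per group), or 2.60-fold, the 18th in size. Unlike its neighbour this gene lay above the arrays' lower quartiles in wild type, though under their medians of 6.43 to 6.465. The change of AT5G52750 minus that of AT5G52760 was -1.14 ± 0.20 (SE from a limma fit of the per-array difference), a value that carries the same limit as the change of AT5G52760.

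In the pair of unlike families the germin-like gene changed more. AT5G38910 read 8.18, 8.17 and 8.00 in actin2-5, against 7.33, 7.20 and 7.09 in wild type, a change of 0.91 ± 0.09 (SE, n = 3 per group) or 1.88-fold. AT5G38900, the gene of the DSBA type, read 7.28, 7.36 and 7.22 in actin2-5, against 6.60, 6.83 and 6.63 in wild type, a change of 0.60 ± 0.09 or 1.52-fold. In both genes the mutant samples lay close together, with SDs of 0.10 for AT5G38910 and 0.07 for AT5G38900, and did not overlap wild type. The change of AT5G38900 minus that of AT5G38910 was -0.31 ± 0.14.

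The AT1G65500 pair differed in the spread of wild type. AT1G65500 read 9.09, 9.14 and 9.24 in actin2-5, against 7.97, 8.44 and 8.69 in wild type. The SD was 0.08 in actin2-5 and 0.37 in wild type, and the groups were 0.40 apart at their closest. The change was 0.79 ± 0.15 (SE, n = 3 per group) or 1.73-fold. AT1G65510 read 6.27, 6.31 and 6.14 in actin2-5, against 5.86, 5.62 and 5.76 in wild type, and its change of 0.49 ± 0.09 or 1.41-fold was the smallest of the 8. The change of AT1G65500 minus that of AT1G65510 was 0.30 ± 0.19. Without wild-type array 1 the change of AT1G65500 was 0.59 ± 0.11.

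The oxygenase pair changed by nearly equal amounts. AT5G43440 read 6.36, 6.46 and 6.66 in actin2-5, against 6.10, 5.81 and 5.75 in wild type, a change of 0.61 ± 0.12 (SE, n = 3 per group) or 1.52-fold. AT5G43450 read 8.75, 9.01 and 9.15 in actin2-5, against 8.45, 8.46 and 8.31 in wild type, a change of 0.56 ± 0.11 or 1.48-fold. The closest mutant and wild-type samples were 0.26 apart for AT5G43440 and 0.29 apart for AT5G43450. The gap of AT5G43440 was the narrowest of the 8. The difference between the changes, AT5G43440 minus AT5G43450, was 0.04 ± 0.13.

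Calls were made at an adjusted p under 0.05 in limma over all 22746 probe sets, of which 497 (2.18%) were higher and 3.3% changed in either direction. All 8 genes were called higher, against 1.76% of the 13286 genes, and in all 8 the groups did not overlap with actin2-5 higher, against 7.18% of genes. Since the genes were chosen on this contrast, nothing is read from these counts. The median change of the 8 was 0.70, against -0.03 over all genes, and 4 of the 8 were among the 100 largest increases. How often the single genes were called under the alternatives differed. Every alternative reuses arrays that chose the genes, so the counts that follow are a description and add no support. They include the alternative with actin2-5 array 2 as the only mutant sample, which was added after the data were seen. AT5G52750 and AT5G52760 were called under every alternative that tested them, 15 for AT5G52750 and 14 for AT5G52760. AT5G52750 passed the filter for values above the array median on 3 arrays only through its mutant samples. AT5G52760 likewise passed the filter for a mean of at least 5 only through its mutant samples. Those calls add no support. AT5G38910 was called under 14 of 15 and AT5G38900 under 13 of 15. AT5G43440 was called under 8 of 14 and AT1G65510 under 9 of 14, while AT1G65500 and AT5G43450 were called under 10 of 15 each. Without actin2-5 array 2, 3 of the 8 were called, and without actin2-5 array 3, 4 were. With the 25S signal as a covariate 4 of the 8 were called, at log2 changes of 2.92 ± 0.25 for AT5G52760, 1.44 ± 0.17 for AT5G52750, 0.93 ± 0.13 for AT5G38910 and 0.65 ± 0.12 for AT5G38900. The other 4 were then at 0.52 to 0.80, close to their values without it, with larger SEs. With actin2-5 array 2 as the only mutant sample, a choice made after the data were seen, the 8 changes were 0.56 to 2.90 and 2 were called. All 8 genes read higher than every wild-type sample on the mutant array of low 25S signal as well as on the others. That only restates the lack of overlap given above, in genes chosen on this contrast, so nothing is read from it. Whether 25S signal has a part in the changes was not tested beyond these values.

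Next, the genes on either side of each pair were examined. Here and below a gene is called measured where a probe set is assigned to it alone in the annotation used. Of the 24 protein-coding genes within 3 steps of a pair, 12 were measured. None was called, 0 of 12 in limma, against 2.74% of all genes, and 2 had an unadjusted p under 0.05. A count of 0 in so few genes is near that share. With 12 of 24 measured, it cannot place where a change ends. The 0 held under all 15 alternatives, though those with a dim filter tested fewer of the 12. Their changes ran from -0.27 to 0.17, with a median of 0.09.

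**Figure D2:**
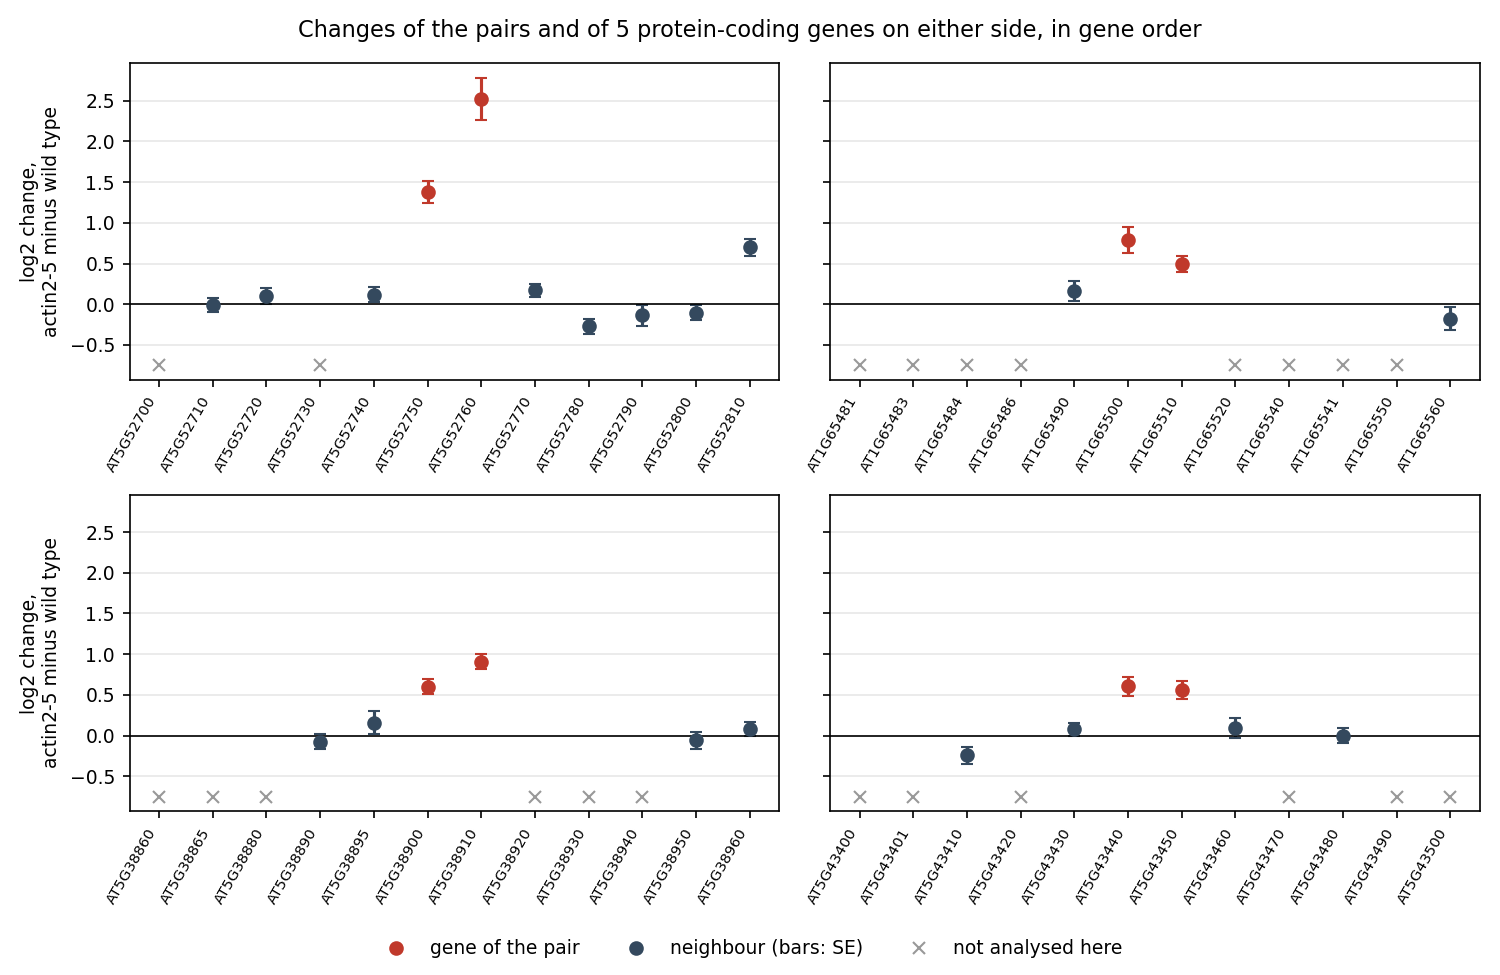
Log2 change with its SE (vertical axis, actin2-5 minus wild type) of the genes of each pair in red and of 5 protein-coding genes on either side in dark blue, in gene order, 1 panel per pair. Crosses at the bottom mark genes not analysed here. The pair, chosen for its increase, stands above its measured direct neighbours in all 4 panels. For the AT1G65500 and AT5G38900 pairs only the direct neighbour before the pair was measured. AT5G52810, 5 steps after the first pair, is at 0.70.

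The block around AT5G52750 is the best covered. AT5G52740, directly before the pair, was at 0.12 ± 0.09 (SE, n = 3 per group; limma adjusted p = 0.614). AT5G52770, directly after it, was at 0.17 ± 0.08 (limma adjusted p = 0.368), and AT5G52720 at 0.10 ± 0.10 (limma adjusted p = 0.71). AT5G52780 was a brighter gene, with a mean of 8.84 ± 0.07 in actin2-5, and was at -0.27 ± 0.09 (limma adjusted p = 0.182). AT5G52790 was at -0.14 ± 0.13 (limma adjusted p = 0.691). Of 7 listed heavy-metal-associated genes of this region 6 were measured, and the 4 besides the pair, AT5G52670, AT5G52720, AT5G52740 and AT5G52770, lay between -0.10 and 0.17 with 0 called higher and 0 called lower. All 4 had wild-type means of 4.21 or less, under the arrays' lower quartiles, where RMA compresses changes. Farther out, AT5G52810, an ornithine cyclodeaminase family gene named after its value was seen, was higher by 0.70 ± 0.10 (limma adjusted p = 0.00526), with AT5G52800 between it and the pair at -0.10 ± 0.09.

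Near the other pairs fewer genes were measured. AT1G65490, directly before AT1G65500, was bright in both genotypes, 10.60 ± 0.10 in actin2-5, against 10.43 ± 0.25 in wild type (SD, n = 3 each), a change of 0.17 ± 0.12 (limma adjusted p = 0.586). The 3 genes after AT1G65510 were not analysed here. Before AT5G38900, AT5G38895 was at 0.16 ± 0.14 (limma adjusted p = 0.667) and AT5G38890 at -0.07 ± 0.09 (limma adjusted p = 0.757). The 3 genes after AT5G38910 were not analysed here, and the next, AT5G38950, was at -0.06 ± 0.11 (limma adjusted p = 0.856). Beside the oxygenase pair, ETFBETA (AT5G43430), which encodes a mitochondrial electron transfer flavoprotein subunit, was at 0.08 ± 0.08 (limma adjusted p = 0.731). AT5G43460 was at 0.09 ± 0.12 (limma adjusted p = 0.783), AT5G43410 at -0.24 ± 0.10 (limma adjusted p = 0.3), and AT5G43480 had equal means in both genotypes. In the RefSeq annotation ETFBETA overlaps AT5G43440 and AT5G38895 overlaps AT5G38900 at their ends, and neither overlapping gene was called.

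To give the pairs a background, every pair of consecutive protein-coding genes with both genes measured was compared in the same way, 5818 pairs in all. Both genes were called higher in 7 pairs (0.12%), the 4 described and 3 more. At least 1 gene was called higher in 228 pairs (3.92%). Both were called lower in 1 pair (0.0172%), AT4G11190 and AT4G11210 of the dirigent-like family, at -0.75 ± 0.15 and -0.63 ± 0.08. The genes were called in opposite directions in 2 pairs (0.0344%). One was AT2G43530 at 1.49 ± 0.11 beside AT2G43535 at -0.47 ± 0.11, the other AT3G22240 at 0.48 ± 0.10 beside the glycosyltransferase gene AT3G22250 at -0.45 ± 0.09. In 53.5% of pairs both changes had one sign.

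**Figure D3:**
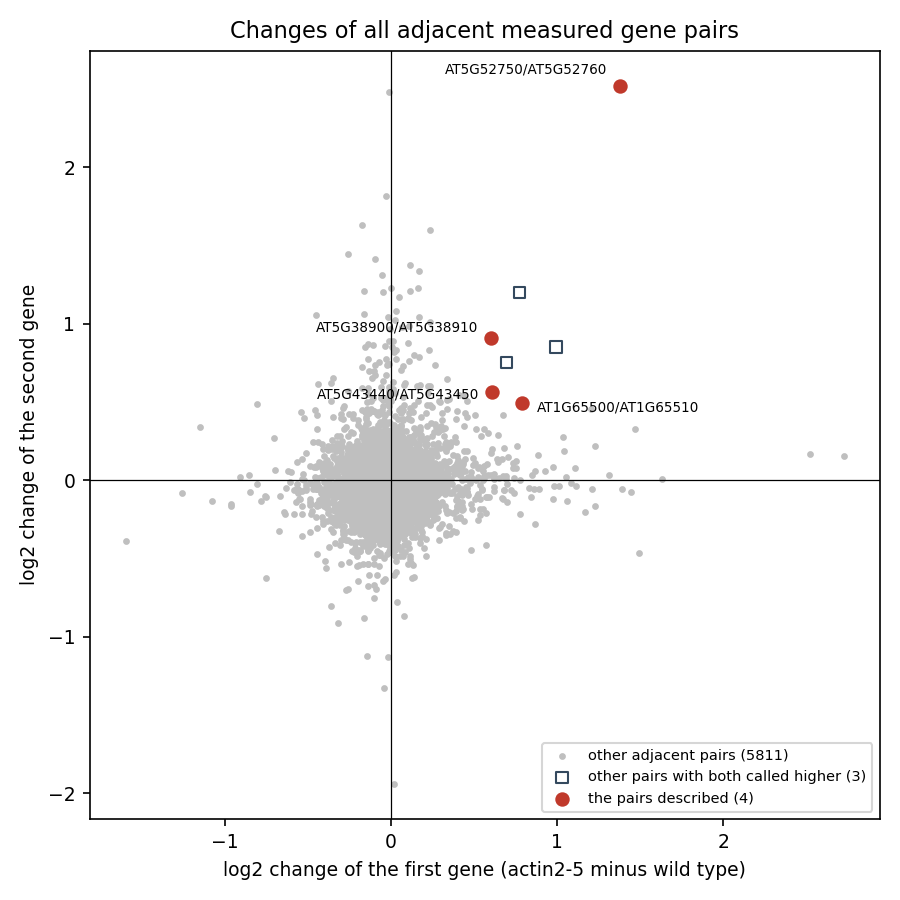
Log2 change of the first gene (horizontal axis) against that of the second (vertical axis), actin2-5 minus wild type, for 5818 pairs of adjacent measured genes. The 4 pairs described are in red, the other 3 pairs with both genes called higher are open squares and all other pairs are grey. The pair AT5G52750 and AT5G52760 lies at 1.38 and 2.52, apart from the other pairs with both genes called higher.

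The other 3 pairs with both genes higher comprised 4 berberine bridge enzyme-like oxidase genes and PORB with AT4G27450. AT1G26380 and AT1G26390 were at 0.99 ± 0.10 and 0.85 ± 0.09, and AT1G26410 and AT1G26420 at 0.77 ± 0.10 and 1.20 ± 0.12. PORB, a light-dependent enzyme of chlorophyll synthesis, and AT4G27450 were at 0.70 ± 0.11 and 0.75 ± 0.12. Among the 7 pairs, AT5G52750 with AT5G52760 had the largest smaller change, 1.38, and AT1G65500 with AT1G65510 the lowest, 0.49. The limit of the call fell close to some pairs. Ranked by the larger adjusted p of its 2 genes, the last pair inside it was AT1G65500 with AT1G65510, at 0.0207. The first outside with both changes above 0 were AT1G70810 with AT1G70820, at 0.46 and 0.50 with a larger adjusted p of 0.0645, AT5G62350 with AT5G62360, at 0.30 and 0.34 with 0.0802, and AT4G38550 with AT4G38560, at 0.44 and 0.54 with 0.0831.

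The 4 pairs are not equally close in the annotation. No other annotated gene lies between AT5G52750 and AT5G52760 or between AT1G65500 and AT1G65510. Between AT5G38900 and AT5G38910 there are 2 entries that are not protein-coding, a transfer RNA gene among them, and 2 such entries also lie between AT5G43440 and AT5G43450. When every annotated gene counts as a neighbour, 5 of 5199 pairs had both genes higher, 2 of them described here.

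Pairs farther apart in gene order were also counted, after the adjacent pairs had been seen. Both genes were called higher in 6 of 5636 pairs 2 steps apart (0.106%) and in 7 of 5628 pairs 3 steps apart (0.124%), about the share of adjacent pairs. At 4 to 10 steps the share was 0.036% to 0.0726%. Of the 234 genes called higher, 32 (13.7%) had another gene called higher within 3 steps, and these include the 8 described. The same share over all measured genes was not worked out, and the 8 were chosen for having such a neighbour. Nothing is therefore read from the 13.7%. The same gene can enter several of the pairs counted by distance. Those shares are therefore not independent of each other, and they rest on 2 to 7 pairs each.

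**Figure D4:**
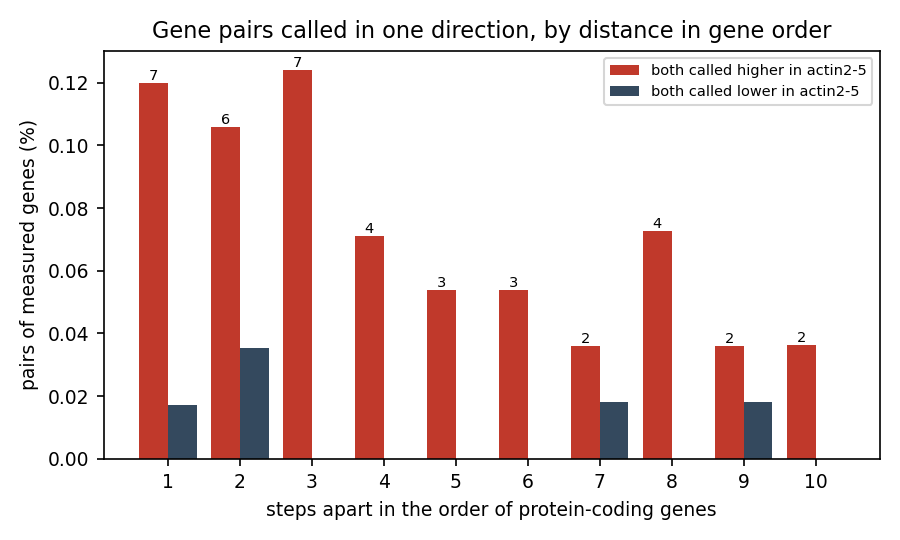
Share of measured gene pairs (vertical axis, percent) with both genes called higher (red) or both called lower (dark blue) in actin2-5, by steps apart in the order of protein-coding genes (horizontal axis). Numbers over the red bars count pairs. The share of pairs with both higher is 0.106% to 0.124% at 1 to 3 steps and 0.036% to 0.0726% beyond.

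The samples of one genotype were then compared with each other. The calls behind the choice of the pairs depend on the size of each gene's scatter, but not on whether the 2 genes of a pair deviate together. For each pair the arrays were counted on which both genes deviated in the same direction from the mean of their own genotype. The genes of the heavy-metal-associated pair did so on 5 of 6 arrays. Both were lowest on array 1 among the mutant samples, by -0.22 for AT5G52750 and -0.78 for AT5G52760, and wild-type array 3 was the exception. On mutant array 2 the deviation of AT5G52750 was only 0.02, and AT5G52760 was dim on the wild-type arrays. The oxygenase pair deviated together on 4 of 6 arrays and the AT5G38900 pair on 3 of 6. Both oxygenase genes were also lowest on array 1 among the mutant samples, by -0.13 for AT5G43440 and -0.22 for AT5G43450. The AT1G65500 pair deviated together on 1 of 6 arrays, wild-type array 3, and on 0 after a repeated quantile normalization or centring on array medians. The wide spread of AT1G65500 in wild type, with deviations from -0.40 to 0.32, was not seen in AT1G65510, where they ran from -0.13 to 0.11. Over all 5818 adjacent pairs the median was 3 of 6 arrays, and 13.5% of pairs had 5 or more. These counts over 6 arrays are given as a description, and no test was made of them.

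**Figure D5:**
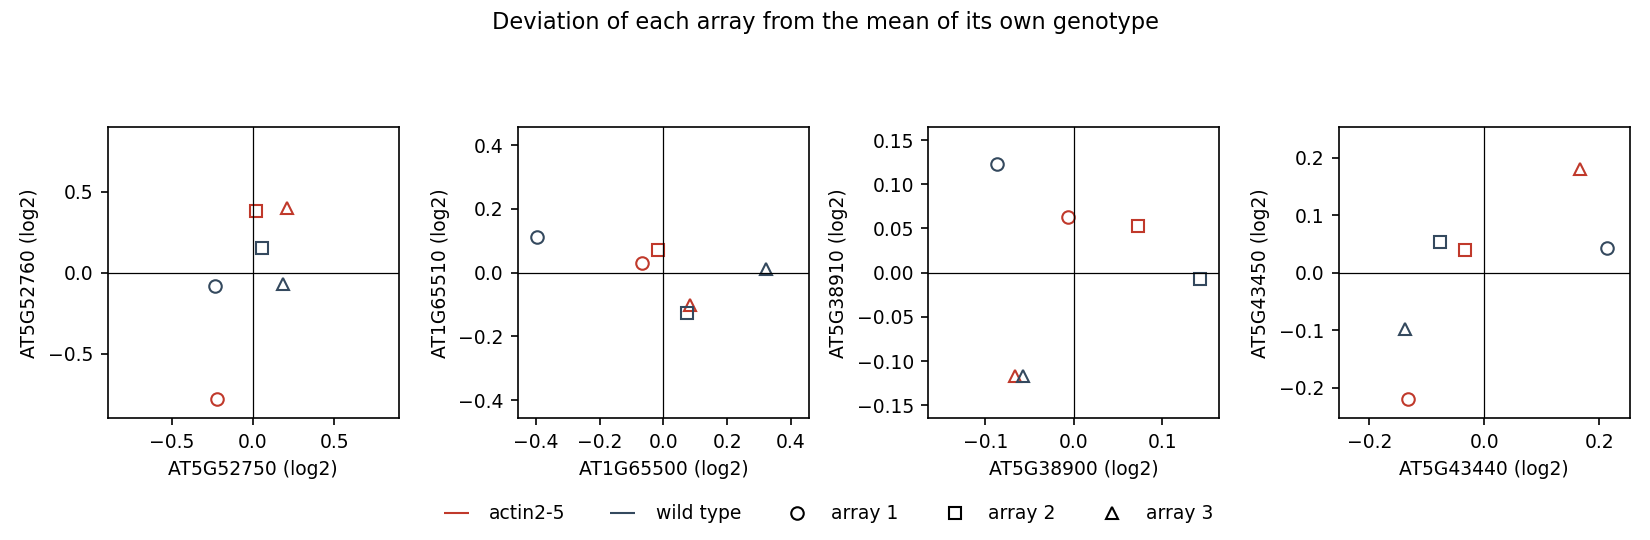
Deviation of each array from the mean of its own genotype (log2) for the first gene of a pair (horizontal axis) and the second (vertical axis), 1 panel per pair with its own scale, actin2-5 in red and wild type in dark blue, symbols marking array numbers. Points in the lower left and upper right parts are arrays on which both genes deviate in one direction, 5 of 6 for AT5G52750 with AT5G52760 and 1 of 6 for AT1G65500 with AT1G65510.

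Genes with the most similar profile to each pair were found by the root mean square distance over the 6 arrays, after subtracting each gene's wild-type mean, from the mean profile of the pair. For the heavy-metal-associated pair they were the MATE transporter gene AT3G23550 at a distance of 0.20, the ankyrin repeat gene AT1G10340 at 0.31 and the calmodulin-like gene AT5G39670 at 0.32, each nearer to the pair's mean than its own 2 genes, at 0.43. For the AT1G65500 pair they were AT5G17760 at 0.06, SAG101, which encodes a lipase-like partner of the immune regulator EDS1, at 0.07, and the glutaredoxin gene AT3G62950 at 0.07, with the pair's own genes at 0.17. For the AT5G38900 pair they were the berberine bridge enzyme-like gene AT2G34810 at 0.05, the immune receptor gene AT1G63750 at 0.09 and the chitinase gene CHI at 0.10, with the pair's own at 0.12. For the oxygenase pair, AT5G27280 was at 0.04, CML38, a calmodulin-like calcium sensor gene, at 0.08 and AT1G04200 at 0.08. Its own 2 genes were at 0.05. A pair's own distance mostly follows how far the changes of its 2 genes differ, which the choice of the pairs bears on. The genes listed are the nearest of all measured genes, so nothing is read from their being nearer than the pair's own genes. Their profiles hold the same contrast that chose the pairs, and they are genes raised by similar amounts. By shared deviations from the genotype means the order of the pairs was different.

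Few relatives of the other pairs have a probe set named here, and the 8730 probe sets without a gene in the annotation used may read others. Of 14 listed genes of ethylene synthesis, to which the oxygenase pair is related, 1 has a named probe set. ACO3, an enzyme of the last step, had means of 6.25 ± 0.02 in actin2-5, against 6.74 ± 0.26 in wild type (SD, n = 3 each), a change of -0.49 ± 0.12 that was not called (limma adjusted p = 0.0596). Of 40 genes with thioredoxin among their RefSeq synonyms 8 have one, with 0 called higher, 0 called lower and changes from -0.11 to 0.13. Most genes of both lists were not analysed here.

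Markers of tissue moved beside the pairs in one respect. Both root hair markers, the expansin genes EXPA7 and EXPA18, fell by 0.86 ± 0.14 and 0.95 ± 0.15 (limma adjusted p = 0.00909 and 0.00636), 2 of 2 measured, and their mean level was 6.47 to 6.58 on actin2-5 arrays and 7.06 to 7.70 on wild-type arrays. The 2 root markers averaged 11.65 to 11.73 in actin2-5 and 11.74 to 11.88 in wild type with 0 of 2 called, and the 4 green-tissue markers 13.11 to 13.18 in actin2-5 and 13.15 to 13.29 in wild type with 0 of 4 called. The root average hides opposite directions, with PYK10 at 0.09 ± 0.08 and NAI2 at -0.27 ± 0.11 (SE). The part of tissue composition in the changes of the 8 genes was not tested. In RNA of whole seedlings, more cells of a type that expresses a gene and more RNA per cell cannot be told apart.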

How the data were processed

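The deposited table holds log2 expression values per probe set that the authors made with RMA in the affy package, per the submitters' processing notes. Their versions and chip definition were not given in the sources used here. Of 22810 probe sets, 64 controls were set aside and 22746 tested two-sided with lmFit and eBayes of limma 3.58.1, run in R 4.3.3, with Benjamini-Hochberg adjustment over all of them. The number of arrays, 3 per group, limits the precision. The platform annotation gave 13513 probe sets with 1 gene, 503 with several and 8730 not listed, and 13436 of the single-gene ones were found by gene identifier in RefSeq's TAIR10.1 table. It supplied names and the order of genes only, since the authors' genome build is unknown here, and no positions are printed. Each gene was represented by its brightest single-gene probe set, and adjacent means consecutive among 27432 protein-coding genes. The 8 probe set IDs end in plain _at, the suffix Affymetrix gave to sets designed to be unique. Probe sequences were not available here, so whether a probe set also reads the other gene of its pair was not examined. Members, lists and rules were chosen with earlier results of these data known. The rule named the 8 genes, measured genes within 3 steps, up to 6 other pairs higher and 4 lower, 3 similar profiles per pair and members of fixed lists. Lists of oxygenases and germin-like genes by product name were not built, and thioredoxin genes were found by synonym instead. On 10 simulated sets of 22746 probe sets limma recovered 91.8% of 200 changed 2-fold, and 3.21% of its calls were false. The simulated noise was independent between probe sets, with no effect shared by a whole array. Most of the 8 genes changed by less than 2-fold, so these rates need not hold for them. Python 3.11.15 with matplotlib 3.10.9 drew the figures.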

Additional observations from a re-analysis of the deposited data

Results flagged for a closer look

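The control probe set U12639, outside the comparison, read 7.88, 8.31 and 7.97 on actin2-5 arrays, against 4.36, 4.47 and 4.43 on wild-type arrays, a log2 difference of 3.63 (limma adjusted p = 3.45e-07, fitted with the controls included). The sequence it detects was not given in the sources used.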

How the results depend on the processing

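All 8 genes kept a change above 0 under the alternatives that tested them. Their groups do not overlap, so leaving arrays out could not change the sign, and nothing is read from this. Of the measured flanking genes 0 were called in any of these alternatives. AT5G52750 passed the array-median filter, and AT5G52760 the filter on the mean, only through mutant arrays, so those calls add no support. The 8 called genes became 5 of 5 tested when probe sets had to exceed the array median on 3 arrays, 4 with the 25S covariate and 2 without actin2-5 arrays 1 and 3, an alternative added after the data were seen in which the lone mutant array left is assumed to vary as wild type does. The 7 adjacent pairs with both genes higher became 4 with the 25S covariate (2 of them described here) and 1 without arrays 1 and 3. The 750 called probe sets became 283 with the covariate, 103 without arrays 1 and 3 and 401 with a minimum change of 1.5-fold, stricter by construction. When each array was left out in turn, 290 to 896 probe sets were called, with 3 to 8 of the 8 genes, 4 to 8 adjacent pairs (4 without actin2-5 array 2, of which 1 is described here) and 0 flanking genes. The differences between changes then ranged from -1.42 to -0.96 for AT5G52750 minus AT5G52760, 0.04 to 0.45 for AT1G65500 minus AT1G65510, -0.42 to -0.24 for AT5G38900 minus AT5G38910 and -0.02 to 0.13 for AT5G43440 minus AT5G43450. The arrays of the AT1G65500 pair deviating together fell to 0 with either rescaling. Causes were not tested beyond the constructions named. With the replicate block all 8 genes were called. Same-number deviations correlated at 0.062, 0.087 and 0.083, and 6 of 6 arrays correlated best with their own number, a hint from the data, not the design. The 6 matches come from one set of correlations between the 2 groups and are not independent of each other.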
